A study of Mus musculus with 12 samples.

Results

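The 8 genes described here encode enzymes of the cholesterol synthesis pathway: Hmgcs1, Idi1, Fdps, Fdft1, Sqle, Lss, Cyp51 and Dhcr7. They were chosen by name from 55678 gene names in an expression table of mouse medial prefrontal cortex, with all entries of a name summed, and all 8 were among the 16423 genes that passed the filter on low values. Each of 12 libraries was taken to be 1 animal, because each sample title gives its own number within a group, in 4 groups of 3. The groups were control and chronically restrained C57BL/6JmsSlc mice (B6) and control and chronically restrained BALB/cCrSlc mice (BALB), all inbred animals with no transgene named in the labels. Chronic restraint stress (CRS) lasted 6 h per day for 21 days, controls were handled without restraint, and mice of 9 to 10 weeks were used for sequencing. Tissue was a 1.5 mm punch taken once behavioural testing had ended. The sources used here do not give sex, litter or library batch. Values are TPM, an abundance per unit of transcript length for which every library has the same total. The question was whether the 8 enzymes differed with restraint, with strain, or with the amount of myelin RNA in the punch.

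Cells build cholesterol from acetyl-CoA through mevalonate, isoprenoid units, squalene and a series of sterols. The blood-brain barrier keeps plasma lipoproteins out, so the brain makes its own cholesterol, with oligodendrocytes supplying sterol for myelin and astrocytes supplying neurons through ApoE particles. When sterol in the endoplasmic reticulum falls, the complex of SCAP and SREBP-2, a transcription factor encoded by Srebf2, is released from INSIG. Processed SREBP-2 then raises transcription of most enzymes of the pathway.

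Promoter sequences are given for the member of highest level and the member with the largest strain difference in controls on the deposited scale, because both belong to a pathway known for control through sterol regulatory elements. RefSeq promoters (GRCm38.p6, 250 bases before to 50 after the annotated start, read 5′ to 3′ on the gene's strand) were matched by symbol for 5 of the 8 members. Fdps, Fdft1 and Sqle had no entry. Capitals mark matches on either strand to TCACNCCAC, a form of the sterol regulatory element, and to CCAAT, the box bound by NF-Y, which reads ATTGG when it lies on the other strand. No match of one motif overlapped a match of the other here.
Hmgcs1, chr13:119690101-119690400, plus strand: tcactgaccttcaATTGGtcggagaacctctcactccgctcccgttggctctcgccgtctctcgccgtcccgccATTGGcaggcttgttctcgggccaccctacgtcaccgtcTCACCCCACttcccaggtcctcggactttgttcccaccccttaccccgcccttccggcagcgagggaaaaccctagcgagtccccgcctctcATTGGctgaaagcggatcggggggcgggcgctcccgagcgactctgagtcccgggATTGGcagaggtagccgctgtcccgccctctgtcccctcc
Cyp51, chr5:4104648-4104947, minus strand: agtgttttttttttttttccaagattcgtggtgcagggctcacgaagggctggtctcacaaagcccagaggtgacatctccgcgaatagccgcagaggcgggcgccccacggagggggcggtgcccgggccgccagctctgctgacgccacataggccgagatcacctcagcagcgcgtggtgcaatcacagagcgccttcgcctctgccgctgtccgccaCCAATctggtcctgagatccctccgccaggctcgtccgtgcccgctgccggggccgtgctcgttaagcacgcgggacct
The Hmgcs1 window held 1 sterol regulatory element match, TCACCCCAC, with its first base at -137 from the start site, and 4 CCAAT boxes. The Cyp51 window held 1 CCAAT box at -29 and no match to TCACNCCAC. Other forms of the sterol regulatory element were not searched, so a window without a match may still hold one. The Lss window (chr10:76531355-76531654) held 1 CCAAT box and the Idi1 window (chr13:8885356-8885655) held 2, neither with a match to TCACNCCAC. Dhcr7 had 3 annotated starts, and the window at chr7:143829964-143830263 held 2 CCAAT boxes. The GC box GGGCGG, searched on both strands and not capitalised, had 3 matches for Hmgcs1, 2 for Lss and 1 each for Idi1 and Cyp51. The Dhcr7 window named above held 3 as well, and those at its other 2 starts held 1 and 0. Of 32851 promoter windows of this length, 1.24% held TCACNCCAC, 37.4% CCAAT and 35.7% GGGCGG. These matches describe letters in a window and not bound sites.

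All 8 enzymes were expressed in every library, in nearly the same order. Mean TPM over the 12 libraries was 167 for Hmgcs1, 100.2 for Fdps, 62.9 for Fdft1, 45.4 for Sqle, 32.6 for Idi1, 27.3 for Cyp51, 21.6 for Dhcr7 and 14.6 for Lss. Hmgcs1, Fdps, Fdft1 and Sqle held ranks 1 to 4 in all 12 libraries, and Dhcr7 and Lss held ranks 7 and 8. Over these libraries the ranges of neighbours did not overlap down to Sqle against Idi1, where the lowest Sqle value was 38.5 TPM and the highest Idi1 value 38.4 TPM. The ranges of Idi1 and Cyp51, of Cyp51 and Dhcr7, and of Dhcr7 and Lss did overlap. Idi1 was above Cyp51 in 10 of 12 libraries, all but B6 control 3 and B6 CRS 14. The ratio of the highest to the lowest library was 1.30 for Sqle, 1.36 for Fdft1, 1.41 for Idi1, 1.53 for Hmgcs1, 1.55 for Dhcr7, 1.62 for Fdps, 1.77 for Cyp51 and 2.05 for Lss. The within-group standard deviation on the log2(TPM + 1) scale was 0.14 for Sqle and Fdft1, at the 19.6th and 19.9th percentiles of tested genes, and 0.25 for Lss, at the 63.5th percentile.

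Hmgcs1 and Idi1 act before the isoprenoid chain is built. Hmgcs1 (chr13:119690379-119708260, GRCm38, GENCODE M21) condenses acetyl-CoA and acetoacetyl-CoA into HMG-CoA. Hmgcs1 read 148, 162 and 203 TPM in B6 controls and 133, 175 and 154 TPM in B6 CRS libraries. In BALB it read 179, 178 and 164 TPM in controls and 152, 186 and 167 TPM under CRS. All 4 groups overlapped, with the highest and the lowest library both in B6. Idi1 (chr13:8885501-8892451) interconverts the isoprenoid units IPP and DMAPP. Idi1 read 37.3, 32.9 and 36.9 TPM in B6 controls and 29.3, 38.4 and 30.5 TPM under CRS. BALB values were 33.2, 35.5 and 28.4 TPM in controls and 27.2, 34.5 and 27.7 TPM under CRS. The groups again overlapped, with the highest value in B6 CRS 13 and the lowest in BALB CRS 12.

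Fdps, Fdft1 and Sqle carry the chain from isoprenoid units to squalene epoxide. Fdps (chr3:89093588-89101959) makes farnesyl diphosphate, the branch point towards sterols and prenylated proteins. It read 83.9, 93.4 and 102 TPM in B6 controls and 75.4, 103 and 96.9 TPM in B6 CRS libraries. In BALB it read 101, 121 and 91.1 TPM in controls and 102, 122 and 111 TPM under CRS. The 2 highest libraries were BALB and the 2 lowest B6, with overlap between strains in both treatments. Fdft1 (chr14:63145150-63179578), squalene synthase, joins 2 farnesyl units. It read 53.6, 63.3 and 65.8 TPM in B6 controls, 52.7, 64.4 and 61.8 TPM in B6 CRS, 67.1, 71.6 and 56.8 TPM in BALB controls and 61.9, 70.1 and 65.1 TPM in BALB CRS. The groups overlapped. Sqle (chr15:59315077-59331192), squalene epoxidase, adds the oxygen needed for ring closure and is a second control point of the pathway. Sqle read 38.5, 46.5 and 47.8 TPM in B6 controls, 40.1, 46.3 and 45.9 TPM in B6 CRS, 49.9, 48.1 and 41.2 TPM in BALB controls and 41.4, 49.9 and 49.0 TPM in BALB CRS. Its groups overlapped and their means lay between 44.1 and 46.8 TPM.

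Lss, Cyp51 and Dhcr7 act on sterols. Lss (chr10:76531588-76557138), lanosterol synthase, closes the rings. It read 22.0, 13.9 and 12.9 TPM in B6 controls, 14.3, 13.1 and 14.8 TPM in B6 CRS, 14.9, 13.4 and 13.9 TPM in BALB controls and 10.8, 16.3 and 15.2 TPM in BALB CRS. B6 control 2 stood above the other 11 libraries. A single table entry of Lss gave 9.68 TPM in that library and between 0 and 2.36 TPM in the other 11. Lss had 8 entries, and its highest entry held 19.8% to 41.5% of the summed TPM, against at least 66.8% for each other member.

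Cyp51 (chr5:4081145-4104746), lanosterol 14-alpha-demethylase, removes the first methyl group after ring closure. It read 30.9, 34.9 and 31.5 TPM in B6 controls and 25.7, 28.5 and 30.8 TPM in B6 CRS libraries. In BALB it read 27.9, 24.7 and 22.5 TPM in controls and 19.7, 26.8 and 23.4 TPM under CRS. All 3 B6 CRS libraries lay below all 3 B6 controls, and all 3 BALB controls lay below all 3 B6 controls. Dhcr7 (chr7:143823145-143848410) catalyses the last reduction of the route through 7-dehydrocholesterol. It read 22.1, 21.1 and 21.9 TPM in B6 controls, 24.0, 22.8 and 25.5 TPM in B6 CRS, 23.0, 19.0 and 18.2 TPM in BALB controls and 16.4, 24.0 and 21.4 TPM in BALB CRS. All 3 B6 CRS libraries lay above the 3 B6 controls, and the other comparisons overlapped.

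**Figure D1:**
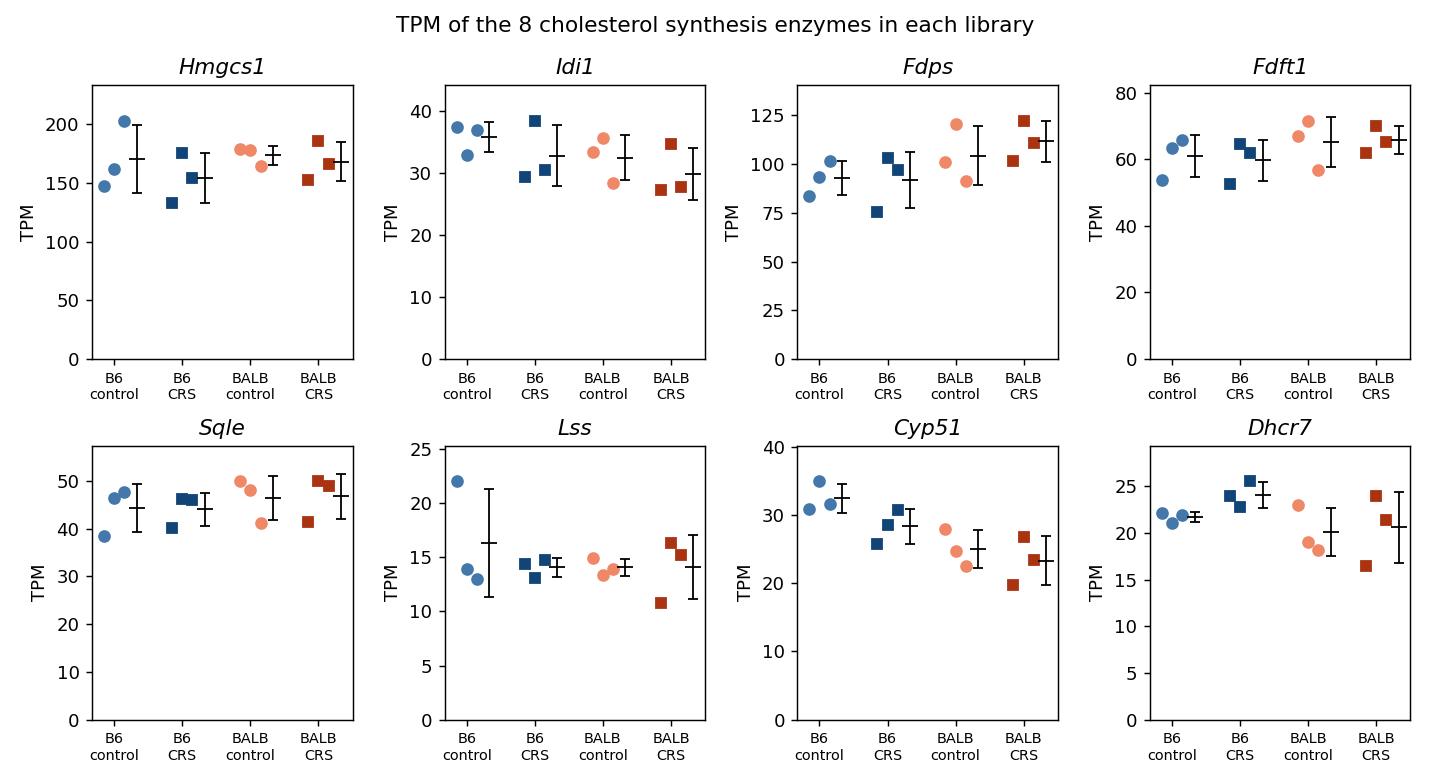
TPM of each enzyme in each library (y axes, linear from 0; x axes, the 4 groups), with the group mean and standard deviation of 3 libraries beside the points. Hmgcs1 ran from 133 to 203 TPM and Lss from 10.8 to 22.0 TPM, and most groups overlapped.

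Differences were tested with limma on log2(TPM + 1), with Benjamini-Hochberg adjustment over all 16423 tested genes and a call at an adjusted p under 0.05. No enzyme passed the test for restraint in B6. By limma 0 of 8 were called and 0 of 8 had an unadjusted p under 0.05, where 0% of all tested genes were called. The estimates ran from -0.19 for Cyp51 (SE 0.13, 95% interval -0.48 to 0.09) to 0.14 for Dhcr7 (SE 0.14, -0.16 to 0.44), with a median of -0.08 beside 0.00 over all genes. Cyp51 and Dhcr7, the 2 members whose groups did not overlap, stand beside 8.33% of tested genes without overlap in this comparison, 3.7% with CRS below and 4.63% with CRS above. As a change in TPM + 1, the intervals of the 7 members other than Lss lay between -28.1% and 36.1%. Lss had the widest interval, from -33.1% to 19.1%. Of the 8 estimates 7 were below 0. That count was 4 without B6 control 9 and 4 without B6 CRS 12. It was also 4 with the replicate block and 4 with a score of 8 striatal neuron markers as a covariate. Those markers had a median of 1.21 for CRS against control in B6, with 0 of 8 called by limma. Their part in the enzyme estimates was not tested.

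In BALB, too, no enzyme passed the test for restraint. By limma 0 of 8 were called and 0 of 8 had an unadjusted p under 0.05, against 0.00609% of tested genes called. Estimates ran from -0.12 for Idi1 (SE 0.14) to 0.10 for Fdps (SE 0.14), with a median of -0.00 beside 0.05 over all genes. Every member overlapped between BALB groups on the deposited scale, where 7.39% of tested genes did not. Under median-of-ratios scaling Hmgcs1 was lower under CRS without overlap, and the share of all genes on that scale was not computed. Of the 8 estimates 4 were below 0 as deposited and 7 after that scaling. The median was then -0.06 beside -0.01 over all genes, and limma called 0 members. Averaged over strains, 0 of 8 were called by limma and 0 of 8 had an unadjusted p under 0.05 (0.00609% of tested genes called), and Cyp51 was lowest at -0.15 (SE 0.09, 95% interval -0.35 to 0.05).

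The restraint effect was also compared between strains. The interaction called 0 of 8 members by limma, and 0 of 8 had an unadjusted p under 0.05, with 0% of tested genes called. Estimates of the BALB effect minus the B6 effect ran from -0.12 for Dhcr7 to 0.15 for Lss (SE 0.20 and 0.27). The median was 0.07 over the members and 0.05 over all genes. Of the 8 estimates 7 were above 0, and this count became 4 under median-of-ratios scaling and ranged from 2 (without B6 CRS 12) to 8 (without BALB CRS 12) when 1 library was left out.

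**Figure D2:**
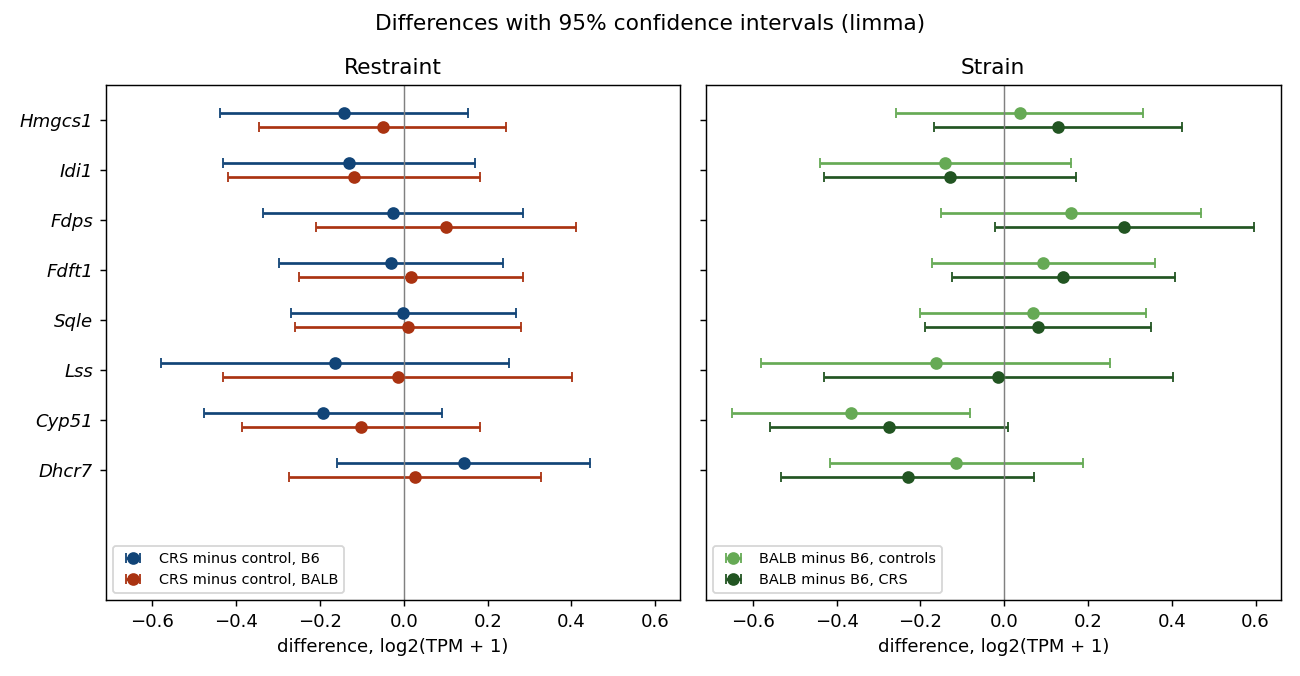
Difference in log2(TPM + 1) of each enzyme with its 95% confidence interval from limma, for restraint in each strain (left) and for BALB minus B6 in each treatment (right). All 16 restraint intervals include 0, and of the strain intervals that of Cyp51 in controls, -0.65 to -0.08, does not.

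Between strains the enzymes split evenly around 0. In controls 4 of 8 estimates were above 0 and 4 below, with a median of -0.04 beside -0.10 over all genes, and limma called 0 of 8, where 4.73% of tested genes were called. Cyp51 had the largest difference on this scale, -0.37 in BALB (SE 0.13, 95% interval -0.65 to -0.08), which corresponds to -22.4% in TPM + 1. Its adjusted p was 0.150 by limma with Benjamini-Hochberg adjustment, and it was the only 1 of 8 with an unadjusted p under 0.05. BALB and B6 controls did not overlap for Cyp51, as for 22.9% of tested genes (18.7% with BALB lower). Under CRS 0 of 8 were called by limma and 0 of 8 had an unadjusted p under 0.05, where 7.7% of tested genes were called. Cyp51 was at -0.28 (SE 0.13, 95% interval -0.56 to 0.01), Dhcr7 at -0.23 (SE 0.14) and Fdps at 0.29 (SE 0.14, -0.02 to 0.60). All 8 overlapped between strains under CRS, while 29.3% of tested genes did not.

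The strain values depended on the scaling. Over all genes the median difference in controls was -0.10, and it was 0.01 after median-of-ratios scaling. That scaling brings this median near 0 by design, so it cannot show which scale is right. A shift of scale and a difference in RNA content cannot be told apart here. Called genes numbered 224 higher and 553 lower in BALB controls as deposited, and 344 higher and 389 lower after that scaling. Under CRS the split was 389 higher and 875 lower as deposited, and 642 and 749 after scaling. Cyp51 stayed below 0 after median-of-ratios scaling, at -0.24 in controls and -0.21 under CRS, and its strains then did not overlap in either treatment. Fdps stayed above 0, at 0.29 in controls and 0.35 under CRS, and its strains then did not overlap either. Sqle was then also without overlap under CRS, with BALB above B6, but overlapped in controls. With that scaling 20.7% of tested genes did not overlap between strains in controls and 35% under CRS. Dhcr7 in controls went from -0.11 to 0.01.

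A strain contrast averaged over both treatments was added after these values had been seen, so that all 12 libraries bear on each gene. Cyp51 was lower in BALB by this contrast, at -0.32 (SE 0.09, 95% interval -0.52 to -0.12, adjusted p 0.0315 by limma with Benjamini-Hochberg adjustment). It was the only 1 of 8 called, where 18.4% of tested genes were called and 14.3% were called lower. Fdps was at 0.22 (SE 0.10), with an adjusted p of 0.148 by limma. With median-of-ratios scaling limma called Fdps as well, at 0.32 with an adjusted p of 0.0342, and Cyp51 remained called at -0.23 with an adjusted p of 0.0275, where 19.4% of tested genes were called. On that scale Fdps had a larger difference than Cyp51 in each strain contrast. The other 6 members had estimates between -0.17 for Dhcr7 and 0.12 for Fdft1.

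The Cyp51 call rested on small margins. Leaving out B6 control 3, B6 CRS 13, B6 CRS 14, BALB control 9, BALB control 10, BALB CRS 12 or BALB CRS 15 gave limma adjusted p-values of 0.0762, 0.0617, 0.0673, 0.0582, 0.0843, 0.0606 and 0.0537, in that order. The estimate without 1 library stayed between -0.37 and -0.27. Marker lists moved with strain as well. The summed TPM of 12 myelin genes was 2630 to 10071 in B6 controls, 2846 to 8159 in B6 CRS, 500.0 to 3212 in BALB controls and 566 to 1520 in BALB CRS libraries. The sum of 8 striatal neuron markers was 205 to 2769, 867 to 2265, 110 to 365 and 131 to 178 TPM in the same order. None of these markers was at 0 in all libraries of a group. With the myelin score (the mean log2(TPM + 1) of those 12 genes) as a covariate, Cyp51 was at -0.22 (SE 0.15, limma adjusted p 0.722). With a striatal score it was at -0.38 (SE 0.15, limma adjusted p 0.244). The SE without a covariate was 0.09. The myelin score was 6.30 to 8.16 in B6 and 4.03 to 6.55 in BALB, and the striatal score was also higher in most B6 libraries. Since the scores vary largely with strain, these fits cannot separate strain from tissue content, here or for the genes below. In bulk tissue, fewer cells of a type and less RNA per cell cannot be told apart.

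Relative to the other enzymes Cyp51 was also lower in BALB. Its share of the summed TPM of the 8 enzymes was 5.79% to 7.46% in the 6 B6 libraries and 4.58% to 5.63% in the 6 BALB libraries. It was the only member whose share did not overlap between strains. How many of all genes would not overlap on such a scale was not computed. In TPM, strains did not overlap for 22.9% of tested genes in controls and 29.3% under CRS. Fdps shares were 19.1% to 21.0% in B6 and 20.4% to 23.6% in BALB, and those of Hmgcs1 were 33.5% to 38.9% and 34.8% to 37.7%. Shares are free of library scaling but tie the 8 members to each other, so no test is given.

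**Figure D3:**
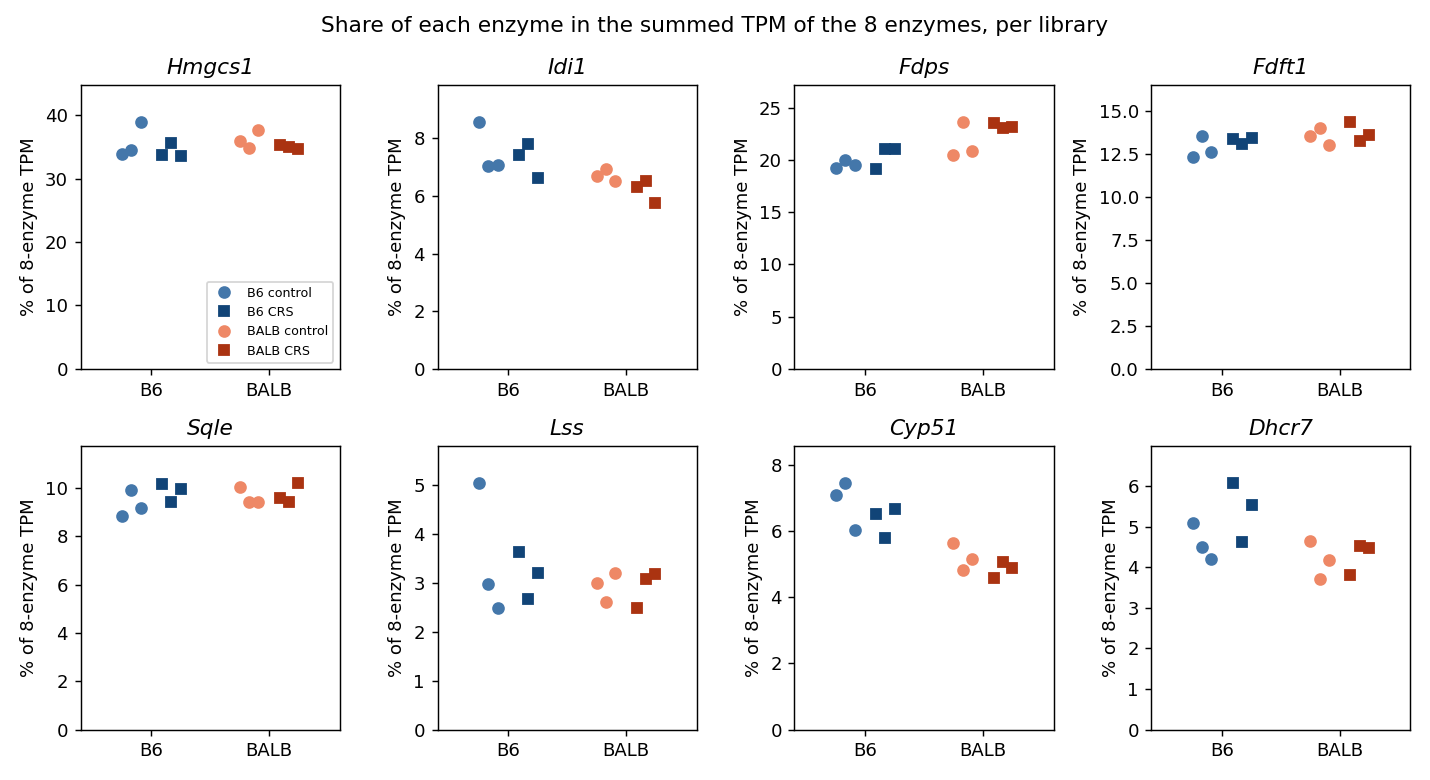
Share of each enzyme in the summed TPM of the 8 enzymes (y axes, percent, linear from 0), 1 point per library, with B6 at left and BALB at right of each panel. For Cyp51 the 6 BALB points, up to 5.63%, lie below the 6 B6 points, from 5.79%.

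Set against myelin, the enzymes varied little. Summed TPM of the 8 enzymes ran from 394 to 530 over the 12 libraries, a 1.34-fold range, while that of the 12 myelin genes had a 20.1-fold range. Within groups limma called 0 of 8 members for a slope on the myelin score and 0 of 8 had an unadjusted p under 0.05, where 0.962% of tested genes were called. Slopes per unit of score ran from -0.00 for Hmgcs1 to 0.11 for Idi1 (SE 0.06, 95% interval -0.01 to 0.23) and 0.12 for Lss (SE 0.08, -0.06 to 0.30). Of the 8 slopes 7 were above 0, with a median of 0.05 beside -0.00 over all genes. The median was 0.02 without BALB control 10 and 0.02 without BALB CRS 12, the BALB libraries of lowest myelin score, 0.03 without BALB CRS 13 and 0.02 with the replicate block. It was 0.07 without B6 control 2, 0.07 without B6 control 9 and 0.08 without B6 CRS 14. With the striatal score as a covariate the median slope was 0.17, beside 0.05 over all genes. Fdps was then at 0.22 (SE 0.07), Fdft1 at 0.19 (SE 0.06), Sqle at 0.18 (SE 0.06) and Hmgcs1 at 0.17 (SE 0.07), while Lss was at -0.01 (SE 0.11). In that fit limma called 0 of 8 members, where 0.286% of tested genes were called, and 5 of 8 had an unadjusted p under 0.05, as did 7.08% of tested genes.

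Correlations with the myelin score were computed within each strain, since the score ran from 6.30 to 8.16 in B6 and from 4.03 to 6.55 in BALB. Of 16 relations, 0 had an adjusted p under 0.05 and 2 had an exact two-sided permutation p under 0.05. In BALB all 8 Pearson coefficients were above 0, from 0.40 for Lss to 0.93 for Fdft1. Fdft1 had Pearson's r 0.927 (exact permutation p 0.0111, adjusted 0.178) and Spearman's rho 0.943 (exact permutation p 0.0167, adjusted 0.267) over 6 BALB libraries. Without the 2 libraries farthest from the median myelin score, r for Fdft1 was 0.891. Fdps had r 0.853 (exact permutation p 0.025, adjusted 0.2) and rho 0.886 (exact permutation p 0.0333, adjusted 0.267) in BALB, and r was 0.649 without those 2 libraries. In B6 6 of 8 coefficients were below 0, from -0.57 for Sqle to 0.52 for Lss, and the lowest exact permutation p was 0.188, adjusted 0.463, for Sqle with rho -0.543 (exact permutation p 0.297, adjusted 0.528). Without the 2 B6 libraries farthest from the median myelin score, r was -0.24 for Sqle, and 2 of 8 coefficients were below 0. Those of Hmgcs1, Fdps, Fdft1 and Cyp51 were then above 0, at 0.369, 0.344, 0.013 and 0.241, so the direction in B6 rests on those 2 libraries. In BALB all 8 stayed above 0 without its 2 libraries, control 10 and control 9. Of the libraries then left, BALB CRS 12 had a score of 4.24 and the others 5.30 to 5.56. Those signs therefore rest largely on BALB CRS 12. In that library 18S ribosomal RNA took 3.97% of TPM, and the median deviation of all genes was -0.15. The difference between strains in these coefficients was not tested.

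**Figure D4:**
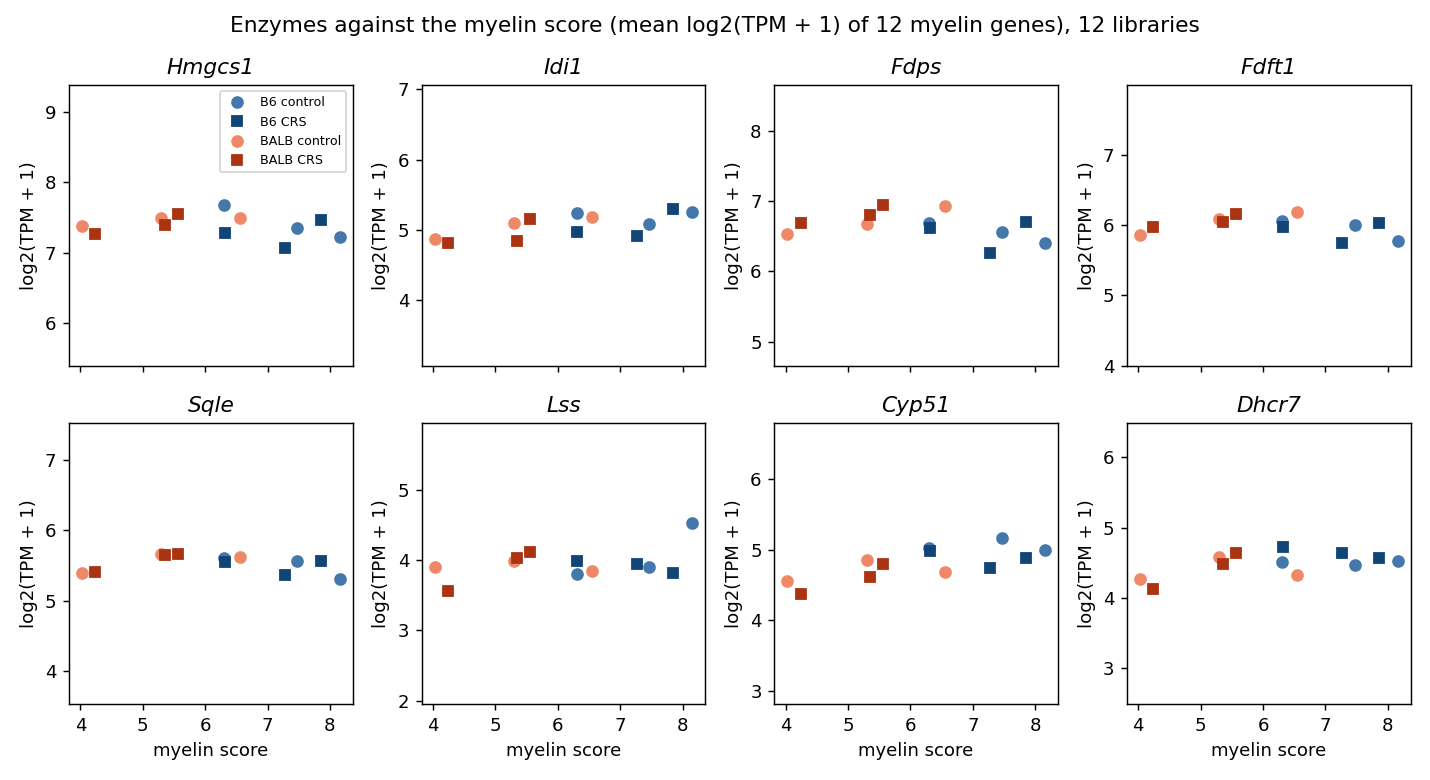
log2(TPM + 1) of each enzyme (y axes) against the myelin score, the mean log2(TPM + 1) of 12 myelin genes (x axes), 1 point per library. The score runs from 4.03 to 8.16, and the y axes span equal widths, on which the enzymes vary little.

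The members moved together from library to library. After subtracting group means on the log2 scale, 7 of the 8 correlated with the mean of the other 7 at Pearson's r between 0.65 and 0.82 across the 12 libraries, and Lss at 0.06. These values share library scaling and depth and are a description. In BALB CRS 13 all 8 members were above their group mean, and in BALB control 10 and BALB CRS 12 all 8 were below. In BALB CRS 12 18S ribosomal RNA took 3.97% of TPM, against at most 0.169% in the other 11 libraries, and the median deviation of all genes there was -0.15, beside -0.15 for the members. Without BALB CRS 12, Cyp51 under CRS was at -0.17 between strains. The 5 genes outside the pathway lists whose profile over 12 libraries was most like the mean of the 8 enzymes were Pcbp4 (Pearson's r 0.907), Polr2g (0.897), Ei24 (0.894), Wdr37 (0.889) and Dctn3 (0.882). The median r over 10449 candidates was 0.32.

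Among 12 other enzymes of the pathway 0 were called with restraint in either strain by limma, and 0 of 12 had an unadjusted p under 0.05. Msmo1, the oxidase that starts the removal of further methyl groups from Cyp51's products, had a mean of 80.8 ± 3.80 TPM (SD, n = 3) in controls of B6 and 73.5 ± 12.1 TPM (SD, n = 3) in those of BALB. It was not called in any comparison by limma.

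Sc5d, the desaturase that makes 7-dehydrocholesterol, the substrate of Dhcr7, was lower in BALB. It read 38.8, 38.3 and 41.0 TPM in B6 controls and 35.9, 42.2 and 40.0 TPM in B6 CRS, against 29.7, 32.9 and 30.5 TPM in BALB controls and 23.7, 32.3 and 29.7 TPM in BALB CRS. No BALB library reached the lowest B6 library. Strains did not overlap for 22.9% of tested genes in controls and for 29.3% under CRS, and the share over both treatments together was not computed. Sc5d was at -0.46 under CRS (SE 0.12) with an adjusted p of 0.0392 by limma, and at -0.33 in controls (SE 0.12) with an adjusted p of 0.154 by limma. The CRS call was lost in 8 of 12 fits without 1 library, with limma adjusted p from 0.0563 to 0.125. These 8 left out B6 control 3, BALB control 5 or 10, BALB CRS 12 or 15, or any 1 of the B6 CRS libraries. In the added average Sc5d was at -0.40 (SE 0.08) with an adjusted p of 0.00804 by limma. The CRS call was also lost with no filter on low values (limma adjusted p 0.0534) and without the intensity trend (limma adjusted p 0.0521). It was lost as well with the myelin score as a covariate (-0.34, SE 0.17, limma adjusted p 0.570). With the striatal score it was lost too (-0.48, SE 0.19, limma adjusted p 0.362). The averaged value was -0.28 with the myelin score and -0.41 with the striatal score (SE 0.14 each). Its limma adjusted p-values were 0.533 and 0.172. Of the 12 enzymes, 1 was called lower and 0 higher under CRS, where 7.7% of tested genes were called. In controls 0 were called, where 4.73% of tested genes were called, and 1 of 12 had an unadjusted p under 0.05.

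Regulators of the pathway showed no call. Of 10 genes of the SREBP and liver X receptor systems, limma called 0 for restraint in either strain and for strain in either treatment, and 1 or 2 had an unadjusted p under 0.05 in each of these. For strain, 4.73% of tested genes were called in controls and 7.7% under CRS. Srebf2 had 99.5 ± 6.22 TPM in B6 controls, 96.8 ± 11.1 in B6 CRS, 93.3 ± 4.74 in BALB controls and 96.2 ± 14.3 in BALB CRS (SD, n = 3 each). Insig1, the SREBP-induced protein that holds SCAP in the endoplasmic reticulum, had 55.2 ± 5.66, 54.5 ± 5.36, 44.0 ± 8.10 and 50.01 ± 3.56 TPM (SD, n = 3) in that order. Its strain difference in controls was -0.33 (SE 0.14) with an adjusted p of 0.224 by limma.

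Among 12 genes of sterol uptake, transport and turnover limma called 1 lower in BALB in each treatment and 0 higher, where 4.73% of tested genes were called in controls and 7.7% under CRS. The list's median was -0.18 in controls and -0.31 under CRS, beside -0.10 and -0.06 over all genes. That gene was Npc1, the lysosomal membrane protein that exports cholesterol. Npc1 read 33.4, 26.0 and 21.0 TPM in B6 controls, 21.9, 28.1 and 21.9 TPM in B6 CRS, 13.7, 14.5 and 15.2 TPM in BALB controls and 12.3, 15.5 and 16.02 TPM in BALB CRS. All 6 BALB libraries lay below all 6 B6 libraries. Strains did not overlap for 22.9% of tested genes in controls and for 29.3% under CRS, and the share over both treatments together was not computed. The Npc1 difference was -0.83 in controls (SE 0.17) with an adjusted p of 0.0141 by limma, and -0.67 under CRS (SE 0.17) with an adjusted p of 0.0312 by limma. The call in controls was lost without B6 control 2 (limma adjusted p 0.0518) and without BALB control 5 (0.0594). Under CRS it was lost without any 1 of the 6 CRS libraries, with limma adjusted p from 0.05004 to 0.116. The CRS call was also lost under median-of-ratios scaling (limma adjusted p 0.0517), after rescaling without mitochondrial, ribosomal and Bc1 RNA (0.0516) and with no filter on low values (0.0600). With the myelin score as a covariate Npc1 was at -0.54 in controls and -0.37 under CRS (SE 0.20 each). The limma adjusted p-values were 0.358 and 0.655. With the striatal score it was at -0.61 and -0.23 (SE 0.16 and 0.21), with limma adjusted p of 0.0683 and 0.718.

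In the added average over treatments, and named for that reason after the values were seen, 3 more genes of this list were lower in BALB. With Npc1, limma called 4 of the 12 lower and 0 higher. Of all tested genes 18.4% were called in this contrast and 14.3% were called lower. Npc2, the soluble partner of Npc1, was at -0.42 (SE 0.10, limma adjusted p 0.0163), Apoe, the main apolipoprotein of the brain, at -0.43 (SE 0.09, limma adjusted p 0.00596) and Cyp27a1, a sterol 27-hydroxylase, at -0.78 (SE 0.20, limma adjusted p 0.0177). With the myelin score as a covariate none of these 3 was called by limma, at -0.16, -0.27 and -0.40 (SE 0.15, 0.13 and 0.31). None was called with the striatal score, at -0.06, -0.22 and -0.53 (SE 0.11, 0.12 and 0.32). Under median-of-ratios scaling the Npc2 call was lost, at -0.33 with a limma adjusted p of 0.0669. The summed astrocyte markers were 1358 to 1567 TPM in B6 and 1000 to 1286 TPM in BALB libraries, and their part in these values was not tested. Cyp46a1, the neuronal 24-hydroxylase through which cholesterol leaves the brain, had 139 ± 16.1 TPM in controls of B6 and 148 ± 28.1 TPM in those of BALB (SD, n = 3). It was not called by limma in any comparison.

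**Figure D5:**
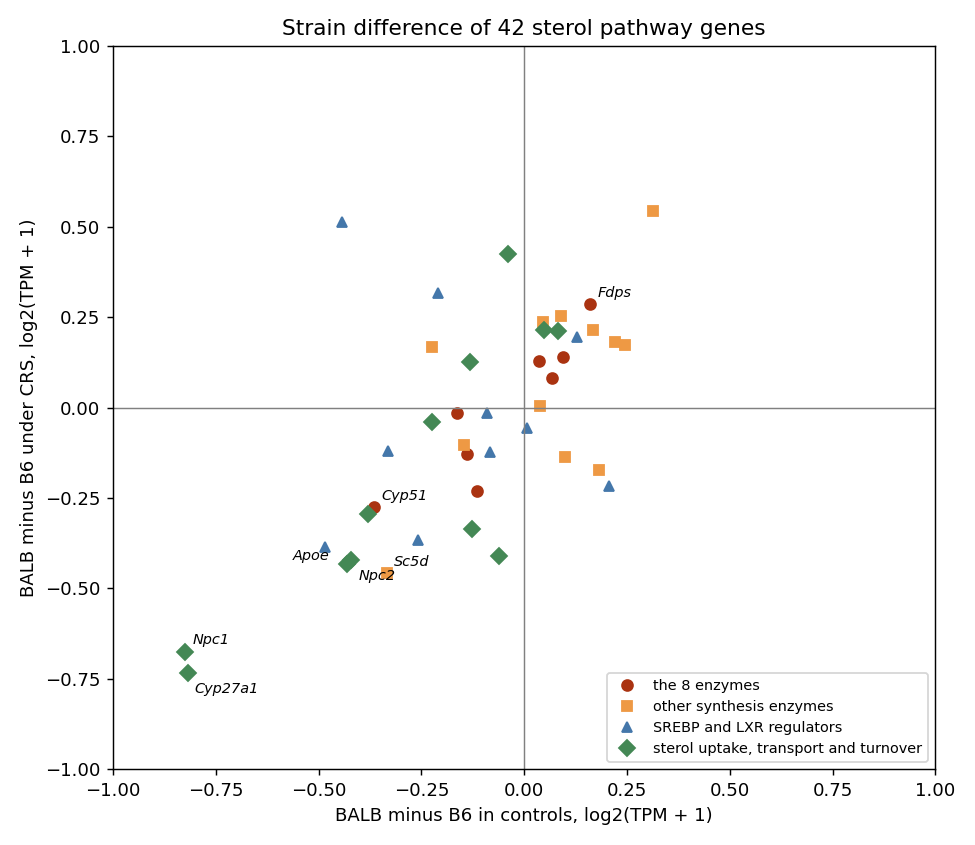
BALB minus B6 difference in log2(TPM + 1) in controls (x axis) and under CRS (y axis) for the 8 enzymes and 34 other sterol genes, 1 point per gene, from non-overlapping sets of libraries. Cyp51 lies at -0.37 and -0.28 and Npc1 at -0.83 and -0.67.

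Several members share sequence or position with other genes. The table's Idi1-ps1, named as an Idi1 pseudogene, was listed at 0 in 7 libraries and at 9.33 TPM in B6 control 9, 11.2 in B6 CRS 14, 8.52 in BALB control 5, 3.50 in BALB CRS 13 and 4.76 in BALB CRS 15. In GENCODE M21 the processed pseudogenes Gm13502 and Gm35570 match Idi1 at 100% and 97.7% identity, and Gm6781 matches Fdft1 at 97.4%. Gm6781 reached at most 0.413 TPM. Reads of such copies can be assigned to either gene, so the levels of Idi1 and Fdft1 are uncertain to that extent. On the opposite strand Akap9 shares 166 of the 4415 exonic bases of Cyp51, and Ctsb shares 774 of the 4227 exonic bases of Fdft1. Akap9 was at 14.1 to 29.4 TPM in B6 and at 10.9 to 16.4 TPM in BALB libraries, and its part in the Cyp51 difference was not tested. The libraries were stranded by the kit named in the labels, and whether quantification used strand is not given in the sources used here.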

How the data were processed

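The authors deposited 1 table of the whole series, with 147902 entries that carry a gene name and 1 column per library. Per the labels, libraries were stranded poly(A) RNA, read as 150 bp pairs to about 6 Gb. Per the submitters' processing notes, Salmon, cutadapt 2.9 and GRCm38 were used, without stated roles. The deposited values were read as TPM, because each column sums to 1000000. TPM keeps no depth, so precision rests on the spread between 3 libraries per group, and counting error cannot be given. Entries of a gene name were added up. The 16423 names that reached 1 TPM in 3 or more libraries were fitted on log2(TPM + 1), with a pseudocount of 1, in limma 3.58.1 under R 4.3.3 (4 group means, 8 residual degrees of freedom, intensity trend), which was tested on simulated data. Differences are on that scale, which understates changes of low genes. Contrasts were restraint in each strain, its average and interaction, strain in each treatment, and a slope on the myelin score. Calls needed a Benjamini-Hochberg adjusted p under 0.05. Correlations used all 720 orders of 6 libraries.

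The members, gene lists and tests were chosen with earlier results of these data known. Named beside the members were Msmo1, Srebf2, Insig1 and Cyp46a1, list genes called in a contrast or slope, near-identical copies, and the 5 most alike genes with a mean of at least 5 TPM. Other genes of this rule are not reported here. Marker lists of 9 cell types were summed, and 8 of 8 excitatory neuron markers averaged at least 1 TPM in every group, with sums of 1956 to 4507 TPM. Sums in TPM over the 4 groups were 92.5 to 289 for oligodendrocyte precursor, 914 to 1415 for inhibitory neuron, 285 to 400 for microglia, 133 to 167 for endothelial and 69.7 to 171 for choroid plexus markers. Copies were found with blastn 2.17.0 at 95% identity over 80% of the shorter GENCODE M21 transcript. Names shared with M21 numbered 48217 of 55678. Alternatives changed the pseudocount, filters, scaling, trend, covariates, replicate block and libraries.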

Additional observations from a re-analysis of the deposited data

How the results depend on the processing

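The count of members called was 0 for each of the 6 planned contrasts and for the myelin slope under every setting run (12 that keep all libraries, 11 for the slope, and 12 that leave out 1), and 0 of 16 correlations passed under 3 other scales. For the added strain contrast averaged over treatments the count was 1, 2 under median-of-ratios scaling, 2 after rescaling without mitochondrial, ribosomal and Bc1 RNA, 0 with the myelin score and 0 with the striatal score as a covariate, and between 0 and 1 without 1 library. The cause was not tested. Over 1528 alternative values of the members, 9 lost the Cyp51 call, 2 gained one for Fdps and 0 reversed a called value, while 139 had another sign with both values uncalled. Title numbers shared between strains belong to different animals, and deviations of same-numbered libraries correlated at -0.24, -0.03 and -0.04. With the replicate block 0 members were called in each planned contrast and 1 in the averaged one, and called genes fell from 1264 to 750 under CRS and rose from 158 to 261 for the slope. All-gene strain calls were 777 in controls, 1264 under CRS and 3021 averaged. These counts were 437, 702 and 1929 at a mean of at least 5 TPM (fewer genes tested), 290, 267 and 387 with the myelin score, and 518, 240 and 530 with the striatal score, and slope calls fell from 158 to 47 with the latter. Averaged splits were 665 higher and 2356 lower as deposited and 1478 and 1701 under median-of-ratios scaling. Without 1 library the calls ranged from 428 (BALB control 10) to 1389 (B6 control 9) in controls and from 539 (B6 CRS 12) to 1852 (B6 control 9) under CRS. Averaged calls ranged from 1975 (BALB control 10) to 3787 (B6 control 9). Depth is unknown, and 3 libraries per group limit every comparison.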
